A study of Bos taurus with 16 samples.

Results

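Prostaglandin F2 alpha (PGF2A) was compared with no PGF2A in cultured cells of the bovine (Bos taurus) corpus luteum, over both states of a second agent, interferon tau (IFNT). The comparison used 16 of the 16 samples of the series: 8 with PGF2A, made up of 4 PGF2A and 4 IFNT+PGF2A cultures, against 8 without, made up of 4 control and 4 IFNT cultures. Genes entered the test when their normalized count, the read count divided by 1 size factor per sample, was at least 10 in at least 4 samples. Of 18675 genes in the table, 14106 did so. All cultures, controls included, were in medium with luteinizing hormone (LH) at 10 ng/mL, and treatments lasted 24 h. Controls received neither agent, IFNT was given at 1 ng/mL, PGF2A at 10 ng/mL, and the fourth group received both at these doses. The cells were primary mixed luteal steroidogenic cells from corpora lutea removed on days 10 to 12 of the estrous cycle, in Ham's F12 with ITS supplement and gentamycin. Wells treated in triplicate were pooled before RNA was isolated, so a sample averages over wells. The samples of each group are numbered 1 to 4, and the labels do not say whether a number is an animal, a dissociation or a culture, so p-values measure only the spread between these samples.

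In ruminants PGF2A is the uterine hormone that brings on regression of the corpus luteum. It acts through PTGFR, a receptor coupled to Gq proteins, which activate phospholipase C, raise calcium and activate protein kinase C, and through it the ERK branch of the mitogen-activated protein kinases (MAPK). In cattle the large luteal cells are known as the main carriers of this receptor. Early targets known from luteal cells include immediate early genes such as FOS, EGR1 and NR4A1, while progesterone synthesis, which runs from cholesterol through STAR, CYP11A1 and HSD3B1, is known to decline during luteal regression.

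The samples held 23785370 to 25904508 reads in genes, and the 10 highest genes took 6.21% to 10.4% of them. The steroidogenic label was checked against its markers: STAR, CYP11A1, HSD3B1, FDX1, NR5A1 and INHA were detected in all 16 samples, with CYP11A1 at 10720 normalized counts or more. Markers of other cell types were detected too. The 8 fibroblast markers, the collagens COL1A1 and COL3A1 among them, and the 9 pericyte and smooth muscle markers had the highest summed counts, and no marker of either list was at 0 throughout. Of the sums of squares over the genes tested, IFNT took 49.7%, the sample number 32.0%, PGF2A 3.17% and the variation of the PGF2A effect between numbers 5.74%. Because samples with the same number deviated together, the sample number is a term in the fit, and a difference within a number is called a pair here, 4 with and 4 without IFNT. The pairs come from 4 numbers, so pairs of the same number cannot be taken as independent replicates. The fit has no term for the variation of the PGF2A effect between numbers. Its standard errors and p-values count that variation as spread between single samples, as if such pairs were independent.

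Number 4 stood apart, and within it the IFNT library. Between the IFNT and IFNT+PGF2A samples of number 4, 10.7% of the genes differed 2-fold or more and the differences had an SD of 0.68 on the log2 scale. In the other 7 pairs these values were 1.97% to 3.43% and 0.33 to 0.42. EIF2AK2, an interferon-induced kinase, stood at 1342 normalized counts in the IFNT library of number 4 and at 4868, 4945 and 5462 in those of numbers 1 to 3. DTX3L, also interferon-induced, stood at 2969.9 there against 7203, 8411 and 8254. Against the control of the same number, however, all 43 tested interferon-stimulated genes were higher in the IFNT library of number 4, the median log2 difference being 4.51, with 4.07, 4.59 and 4.67 in numbers 1 to 3. Its label is used as given, and each value with IFNT, or between the IFNT states, rests on it in part. Counts of called genes over both IFNT states are therefore also given without number 4.

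PGF2A changed a small share of the transcripts, mostly by less than 2-fold and more often upward. With a Benjamini-Hochberg adjusted p under 0.05 in limma, the meaning of rose, fell and called throughout, 327 of 14106 genes were called (2.32%). Of these 206 rose (1.46%) and 121 fell (0.858%). The median called rise was 0.46 and the median called fall -0.34 on the scale of log2(normalized count + 0.5), which understates changes of low genes; the median over all genes tested was close to 0, at -0.00011. All 23 genes called at 2-fold or more rose. At 1.5-fold or more 74 rose and 13 fell. Among the called genes, 191 were higher in 8 of 8 pairs and 96 lower in 8 of 8, against 3.42% and 2.84% of all genes tested. In 25 of all genes tested (0.177%) every sample with PGF2A was above every sample without it in each IFNT state, and 23 of these were called. In 6 (0.0425%) every sample with PGF2A was below, and 4 of these were called. The calls rest on these same values with the number as a term. Agreement between pairs and separate groups thus follow in part from the choice and are no support for the calls. Since the material is bulk RNA, fewer cells of a type and less RNA per cell cannot be told apart in any of these values.

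These counts depended on the number term and on number 4. Without the number term 6 genes were called, all higher, CCND1, FGF7, PHLDA1, SCIMP and TCHHL1 among them. Without number 4 the count was 824, with 509 higher and 315 lower, out of 13932 genes tested (5.91%, 3.65% and 2.26%), and it held 301 of the 327 genes. Without the IFNT library of number 4 alone it was 575, with 354 higher and 221 lower. The share of 5.91% is the background for each count of list members called without number 4. For each such count with all numbers the background is 2.32%, with 1.46% higher and 0.858% lower. Leaving out number 2 gave the lowest count of the 4 numbers, 46. Of the 97 called genes that are named below or belong to a list described below, 63 remained called in each of the 16 fits that left out 1 library, and 28 also in each of the 4 fits that left out a number. None of the 97 changed sign in any of these 20 fits. Leaving out number 1, 2, 3 or 4 took the call from 54, 65, 49 and 5 of the 97, in that order. CD44, DUSP6, EGLN3, FOSL1, GSTA4, IL11, MVK, NQO1, NR4A1 and TCHH lost it in each fit without number 1, 2 or 3.

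**Figure D1:**
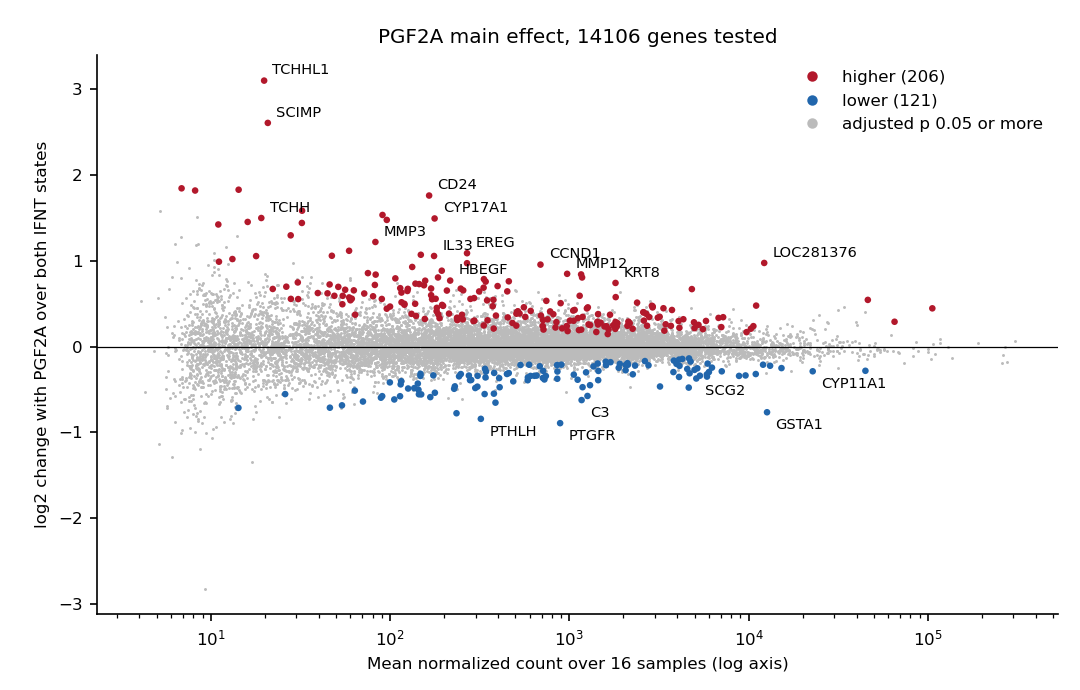
Log2 change with PGF2A over both IFNT states (vertical axis) against the mean normalized count over the 16 samples (horizontal, log axis) for the 14106 genes tested; red points rose (206), blue points fell (121) and grey points were not called. Rises reach 3.10 (TCHHL1) while the largest fall is -0.89 (PTGFR), and called genes span low and high counts.

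The effect of PGF2A was next taken in each IFNT state apart. Each log2 change comes from samples that the other state does not use, but the spread behind the calls was estimated over all 16 samples. The calls of 1 state thus depend in part on libraries of the other. PGF2A against control gave 23 calls (0.163%), 16 higher (0.113%) and 7 lower (0.0496%), and IFNT+PGF2A against IFNT gave 99 (0.702%), 78 higher (0.553%) and 21 lower (0.149%). These counts moved with single libraries. Without number 4 they were 96 and 333, and without its IFNT library alone 122 and 214. Leaving out control 1, or PGF2A 2, gave 0 calls without IFNT, and leaving out IFNT+PGF2A 1 or IFNT 2 gave 5 or 6 with IFNT. All 16 rises and all 7 falls called without IFNT had the same direction with IFNT, their medians being 0.88 and -0.60 without IFNT and 0.91 and -0.34 with it. Of the calls made with IFNT, 77 of 78 rises and 21 of 21 falls had the same direction without IFNT. For comparison, 51.2% and 48.5% of all genes tested were above 0 with and without IFNT. For the difference between the states itself, the interaction, limma called 0 genes, with a lowest adjusted p of 0.9996 and 216 genes at an unadjusted p under 0.05. edgeR and DESeq2 on the recovered reads also called 0. Of the 327 genes, 228 were called over both states together and in neither state alone.

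**Figure D2:**
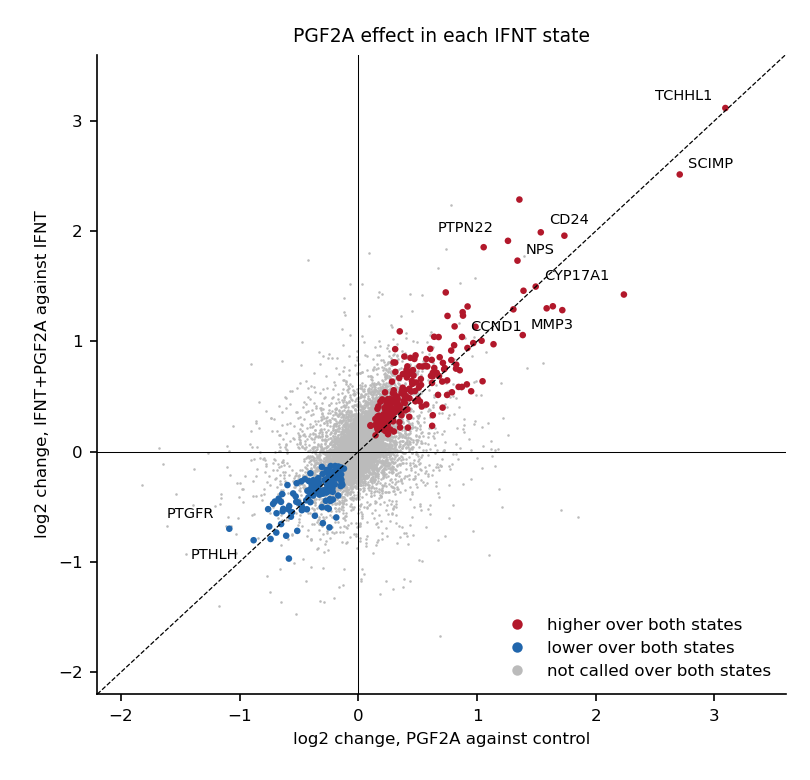
Log2 change of PGF2A against control (horizontal axis) and of IFNT+PGF2A against IFNT (vertical axis) for the genes tested, with the line of equal change dashed; red and blue points are the 206 and 121 genes called higher and lower over both states, and 2 genes lie outside the axes. The coloured points lie along the dashed line, and TCHHL1, SCIMP, CD24 and CYP17A1 are far above 0 on both axes; the choice of the coloured points used both axes.

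Calls made without 1 number were also read in the number left out. Rises called without number 1 were above 0 in number 1 for 73 of 74 genes, without number 2 for 37 of 37 and without number 3 for 71 of 72. Of all genes, 48.79%, 49.55% and 50.92% were above 0 in these numbers. Falls called that way were below 0 for 25 of 27, 9 of 9 and 34 of 36 genes, with 51.19%, 50.43% and 49.05% of all genes below 0. For number 4, of 509 rises called from numbers 1 to 3, 315 were above 0 in number 4 (61.9%, with 48.0% of all genes above 0 there), and of 315 falls 169 were below 0 (53.7%, with 52.0% of all genes).

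The receptor was lower with PGF2A in 7 of 8 pairs. PTGFR had normalized counts of 991, 1729.6, 1057 and 448 in control cultures 1 to 4 and of 356, 596, 527 and 355 with PGF2A alone. PTGFR counts were 1319.6, 2196, 1626 and 269.8 with IFNT and 549.9, 1039, 701 and 456 with IFNT+PGF2A. Samples with PGF2A were below those without it in numbers 1 to 3 of both states, and in the IFNT state of number 4 the order was reversed; that IFNT library had the lowest count of all 16. The change in PTGFR was -0.89 ± 0.21 (adjusted p = 0.0391), where ± gives the standard error of limma as throughout. This call was kept in 3 of the 16 fits that each left out 1 library, namely those without the IFNT, PGF2A or IFNT+PGF2A library of number 4. Without number 4 the change was -1.26 (adjusted p = 1.36e-07). LHCGR, the receptor of LH, had a log2 change of -0.37, adjusted p = 0.425, and was lower in 6 of 8 pairs; it was higher with PGF2A in both pairs of number 4. Without number 4 LHCGR was called, with a log2 change of -0.74, adjusted p = 0.0021.

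Of 30 genes tested on a list of the PGF2A receptor and the Gq and protein kinase C pathway, 1 rose and PTGFR fell, and the median of the list was 0.091. The rise was that of RCAN1, a calcineurin-regulated inhibitor of calcineurin (0.35, adjusted p = 0.0167). PRKCD, the delta isoform of protein kinase C, had a log2 change of 0.17, adjusted p = 0.0912, and NFATC1, a transcription factor activated by calcineurin, one of 0.16, adjusted p = 0.15. Without number 4, 2 of the 30 rose and 1 fell, and the median was below 0, at -0.046.

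A list of peptides known from large luteal cells held 2 of the falls. Secretogranin II (SCG2) and parathyroid hormone-like hormone (PTHLH) fell among the 10 tested genes of that list, whose median was -0.073, and none rose. Of the 10, 4 were above 0 and 6 below. The oxytocin gene OXT was not called (log2 change -0.13, adjusted p = 0.431). Without number 4, 1 gene of the list rose and 2 fell. SCG2 stood at normalized counts of 7069.6, 7349, 2628 and 2168 in the 4 control cultures and at 5448, 5386, 2144 and 1535 in the PGF2A cultures. Beside IFNT, SCG2 stood at 9468, 11066, 3448 and 2798 without PGF2A and at 7537, 8780.1, 2828 and 2099.8 with it. SCG2 was lower with PGF2A in each of the 8 pairs while numbers 1 and 2 stood above numbers 3 and 4 in every group, so the groups overlapped. Its change was -0.37 ± 0.044 (adjusted p = 0.000488), called in all 20 leave-one-out fits. For PTHLH the normalized counts were 84.3, 119.5, 81.8 and 99.6 in control, 53.7, 66.7, 53.6 and 36.4 with PGF2A, 426, 859, 753 and 786 with IFNT and 175, 489.7, 601 and 451 with IFNT+PGF2A, in the order of the numbers. Within each IFNT state the PTHLH counts were lower with PGF2A in every pair; without IFNT the groups did not overlap, and with IFNT they did. The change in PTHLH was -0.84 ± 0.17 (adjusted p = 0.0196), called in 14 of the 16 fits that each left out 1 library. Of the 5 large luteal markers, PTGFR, SCG2 and PTHLH fell, PAPPA had a log2 change of 0.34, adjusted p = 0.0688 (called in 2 of the 16 fits that each left out 1 library), and the list had a median of -0.37. The sum of the 5 marker counts ran from 18050 to 41036 in control and from 14844 to 39295 with PGF2A, and from 22766 to 49931 with IFNT and from 15718 to 44024 with IFNT+PGF2A. Whether fewer large cells had a part in these falls was not tested.

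Ligands of the epidermal growth factor (EGF) receptor family rose together with feedback genes of the ERK pathway. Of 10 tested genes of the EGF list 4 rose and 0 fell, with a median of 0.25: epiregulin (EREG), heparin-binding EGF-like growth factor (HBEGF), neuregulin 1 (NRG1) and amphiregulin (AREG). HBEGF had normalized counts of 171, 189, 195 and 122 in control cultures 1 to 4 and of 253, 308, 333 and 199.7 with PGF2A alone. HBEGF counts were 146, 141, 169.5 and 137 with IFNT and 280.3, 328, 314 and 178 with IFNT+PGF2A. Every HBEGF count with PGF2A was above every count without it in the same IFNT state. The change was 0.77 ± 0.080 (adjusted p = 0.000247). EREG stood at normalized counts of 135, 449, 364 and 59.0 in the 4 control cultures and at 271, 541, 484 and 143 in the PGF2A cultures. Beside IFNT, EREG stood at 125, 138, 235 and 41.0 without PGF2A and at 352, 332, 461 and 171 with it. EREG was higher in each pair, but numbers 2 and 3 stood above number 4 in every group, and the groups overlapped. Its change was 1.09 ± 0.20 (adjusted p = 0.00982), that of NRG1 0.50 ± 0.10 (adjusted p = 0.0185) and that of AREG 0.47 ± 0.098 (adjusted p = 0.0211). HBEGF was called in all 20 leave-one-out fits, and AREG in 13 of the 16 fits that each left out 1 library. The median of the list was 0.054 without number 4. All 4 were also called without number 4, where EREG changed by 0.90 and HBEGF by 0.85. Neither NRG1 nor AREG was called without number 1, without number 2 or without number 3. EREG was not called without number 1 or without number 3.

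Of 20 tested genes of MAPK feedback and ERK targets 6 rose and 0 fell, with a median of 0.17. DUSP5 and DUSP6, phosphatases that dephosphorylate ERK, rose, as did ERRFI1, which inhibits the EGF receptor, DUSP1, a nuclear MAPK phosphatase, and ETV4 and ETV5, transcription factors of the ETS family. For DUSP5 the normalized counts were 298, 299.8, 239 and 239.9 in control, 471, 741, 396 and 363 with PGF2A, 215, 250.1, 218 and 161 with IFNT and 352, 489.7, 365 and 243 with IFNT+PGF2A, in the order of the numbers. DUSP5 was higher with PGF2A in all 8 pairs, the groups being separate without IFNT and overlapping slightly with it. The changes were 0.79 ± 0.084 (adjusted p = 0.000247) in DUSP5, 0.40 ± 0.066 (adjusted p = 0.00577) in ERRFI1 and 0.32 ± 0.062 (adjusted p = 0.0145) in DUSP6. The changes in ETV4, ETV5 and DUSP1 were 0.32, 0.28 and 0.20, and these calls were kept in 3, 5 and 4 of the 16 fits without 1 library (adjusted p up to 0.215, 0.257 and 0.387 over the leave-one-out fits). Without number 4, 7 of 19 genes of the list rose and 0 fell, with a median of 0.12.

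Immediate early transcription factors rose in part at this time of 24 h. Of 13 tested AP-1 and EGR factors 3 rose and 0 fell (median 0.14; 12 of 13 above 0): EGR2 (0.56, adjusted p = 0.00846), EGR1 (0.38, adjusted p = 0.0244) and FOSL1 (0.37, adjusted p = 0.0167). EGR1 stood at normalized counts of 2069, 3821, 4072 and 1714 in the 4 control cultures and at 2682, 4956, 4005 and 1934 in the PGF2A cultures. Beside IFNT, EGR1 stood at 1386, 1981, 2926 and 1069 without PGF2A and at 2127, 3052, 3666 and 1599.9 with it. EGR1 was higher with PGF2A in 7 of 8 pairs, the exception being number 3 without IFNT, and its groups overlapped; the call was kept in 10 of the 16 fits that each left out 1 library. FOS itself, the classical immediate early gene, had a log2 change of 0.14, adjusted p = 0.381, higher in 6 of 8 pairs. Of 25 tested NR4A and other immediate early genes 6 rose and 1 fell, with a median of 0.13. NR4A1, an orphan nuclear receptor, rose by 0.48 ± 0.092 (adjusted p = 0.0132). PHLDA1 had normalized counts of 965, 1137, 1103 and 991 in control cultures 1 to 4 and of 1295, 1678, 1259.5 and 1217 with PGF2A alone. PHLDA1 counts were 1009.9, 1088, 1102 and 1127 with IFNT and 1489, 1639, 1596 and 1599.9 with IFNT+PGF2A. Each PHLDA1 count with PGF2A exceeded each count without it in the same IFNT state. PHLDA1, a pleckstrin homology-like domain protein, rose by 0.46 ± 0.058 (adjusted p = 0.000916) and was called in all 20 leave-one-out fits. The fall was that of CEBPD, a transcription factor of the C/EBP family (-0.27, adjusted p = 0.0202). Also counted among the rises were BTG2 (0.21, adjusted p = 0.0271), an antiproliferative factor, CCN2 (0.29, adjusted p = 0.0328), a matricellular protein, TRIB1 (0.20, adjusted p = 0.0486), a pseudokinase, and NFIL3 (0.26, adjusted p = 0.04999), a leucine zipper repressor. The last 3 kept their calls in 6, 1 and 4 of the 16 fits without 1 library. Without number 4 the counts were 6 of 13 higher for the AP-1 and EGR factors (median 0.21), and 14 of 25 higher with 1 lower for the other list.

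**Figure D3:**
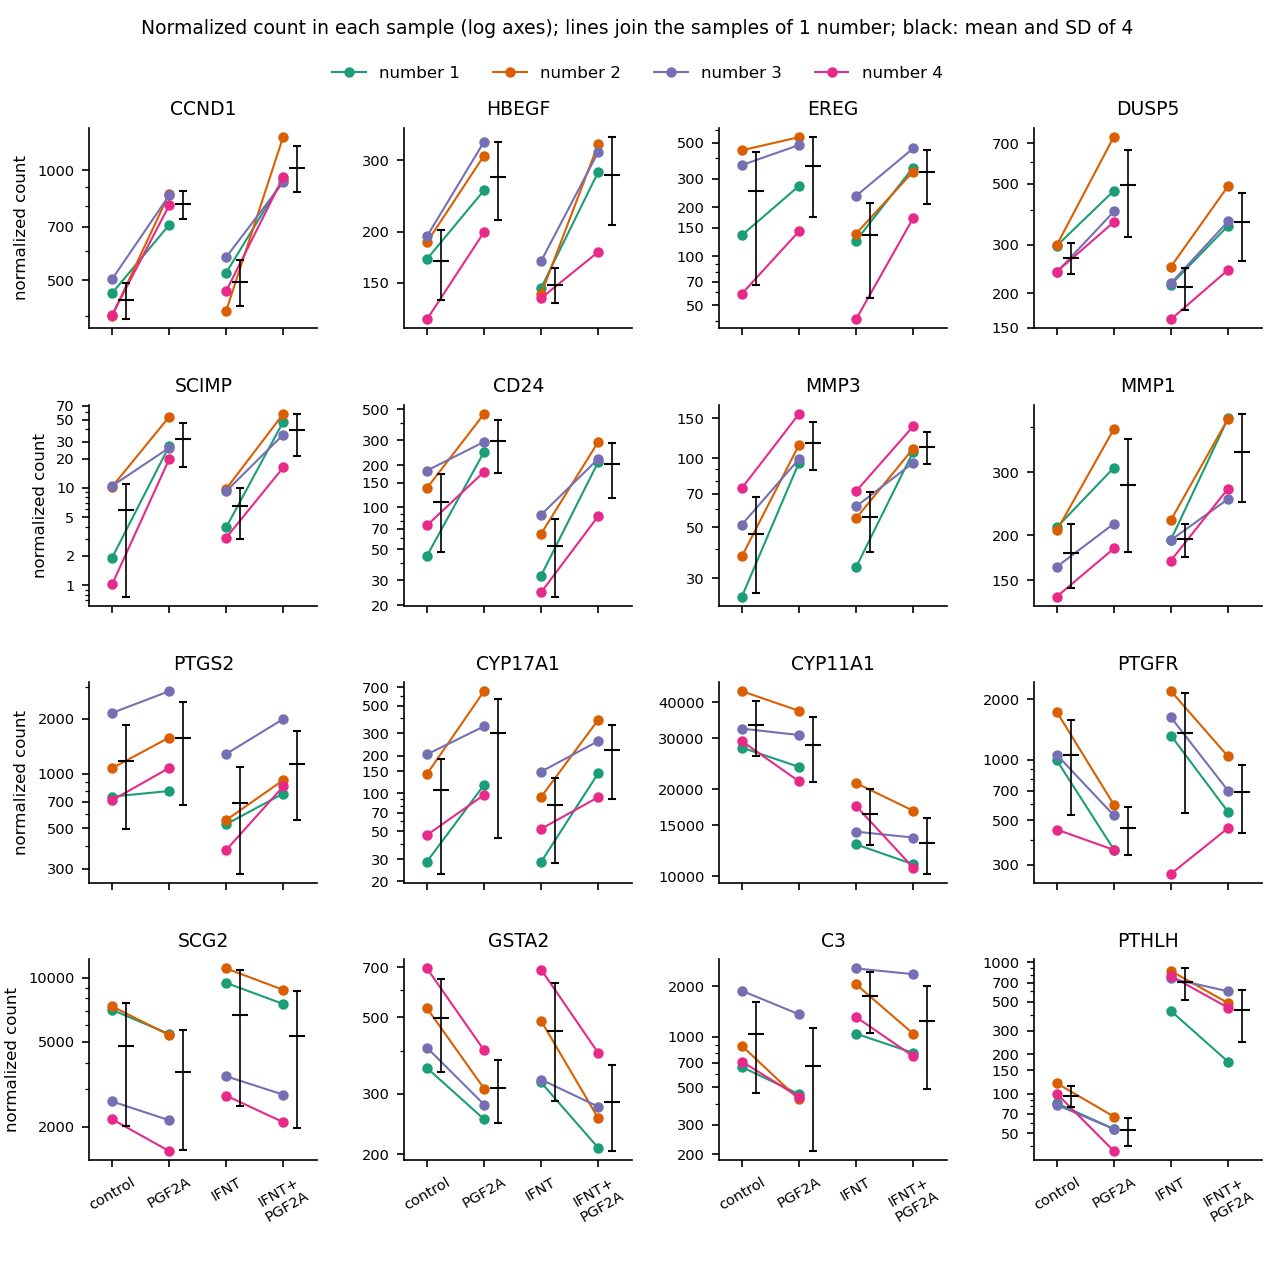
Normalized count (log axes) of 16 genes in each sample of the 4 groups; lines join the 2 samples of 1 number within an IFNT state, and black marks give the mean and SD of 4 samples. For CCND1, HBEGF, SCIMP and MMP3 all samples with PGF2A lie above those without it in each IFNT state, while for SCG2, CYP11A1 and C3 the lines slope down but the groups overlap, and the PTGFR line of number 4 with IFNT slopes up.

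Cyclin D1 (CCND1), which drives entry into the cell cycle through CDK4 and CDK6, was among the most regular responses. CCND1 stood at normalized counts of 461, 399, 503 and 402 in the 4 control cultures and at 709, 863, 854 and 802 in the PGF2A cultures. Beside IFNT, CCND1 stood at 524, 412, 578 and 467 without PGF2A and at 946, 1238, 929.6 and 959 with it. No CCND1 sample with PGF2A overlapped a sample without it, in either IFNT state, and the group means ± SD of 4 samples were 441 ± 50.4 in control, 807 ± 70.8 with PGF2A, 495 ± 71.7 with IFNT and 1018 ± 147 with IFNT+PGF2A. The change was 0.96 ± 0.085 (adjusted p = 0.000215), called in all 20 leave-one-out fits and without the number term. With all numbers it was the only call among 20 tested G1 cyclins, kinases and inhibitors (median 0.11), and without number 4, 2 rose and 1 fell (median 0.077). Among 32 tested S phase and mitosis genes 1 rose, the ribonucleotide reductase subunit RRM2 (0.76, adjusted p = 0.0117), which makes deoxynucleotides. In that list 31 of 32 genes were above 0 and the median was 0.21, but only RRM2 was called (3.1%, near the 2.32% of all genes). The list's median was 0.34 without IFNT and 0.068 with IFNT, a difference that was not tested, and without number 4 it was 0.094, with 2 rises. RRM2 was higher in all 8 pairs; its counts ran from 223 to 679 in control and from 356 to 1524 with PGF2A. CDC6, which loads the replicative helicase, had a log2 change of 0.57, adjusted p = 0.0845.

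Proteases of the extracellular matrix and the plasminogen system formed the list with the most rises by count, though not by share. Of 24 tested genes 7 rose (29.2%, against 1.46% of all genes) and 0 fell, although the median of the list was 0.017, near that of all genes. The shares were larger in the EGF list (40%) and in the list of MAPK feedback and ERK targets (30%). The rises comprised the metalloproteinases MMP1, a collagenase, MMP3, a stromelysin, and MMP12, an elastase, the aggrecanases ADAMTS1 and ADAMTS5, the inhibitor TIMP3 and the urokinase receptor PLAUR. MMP3 had normalized counts of 24.9, 37.4, 51.4 and 74.2 in control cultures 1 to 4 and of 95.8, 114, 99.3 and 156 with PGF2A alone. MMP3 counts were 33.4, 54.7, 61.6 and 71.8 with IFNT and 106, 110.3, 95.6 and 138 with IFNT+PGF2A. Every MMP3 count with PGF2A was above every count without it in the same IFNT state. The change in MMP3 was 1.22 ± 0.13 (adjusted p = 0.000302).

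The other 6 proteases and inhibitors were higher in all 8 pairs, with groups that overlapped in 1 or both IFNT states. The changes were 0.97 ± 0.16 (adjusted p = 0.00542) in ADAMTS5, 0.85 ± 0.12 (adjusted p = 0.0019) in MMP12, 0.68 ± 0.090 (adjusted p = 0.00126) in MMP1, 0.47 ± 0.082 (adjusted p = 0.00722) in PLAUR, 0.46 ± 0.054 (adjusted p = 0.000488) in ADAMTS1 and 0.33 ± 0.054 (adjusted p = 0.00548) in TIMP3. All 7 were called in each of the 16 fits without 1 library. MMP1, MMP3 and ADAMTS1 also kept their calls in each fit without a number, while PLAUR kept it in 1 of 4. Without number 4, 8 of 24 rose and 0 fell, with a median of 0.043. A further gene, LOC281376, for which the RefSeq gene table lists the synonym PAI2 (a plasminogen activator inhibitor), was among the 10 smallest adjusted p-values. LOC281376 stood at normalized counts of 4676, 9586, 11165 and 5719 in the 4 control cultures and at 9197, 22326, 19801 and 10304 in the PGF2A cultures. Beside IFNT, LOC281376 stood at 4775, 8792, 12384 and 8930.1 without PGF2A and at 10113, 18370, 22320 and 17149 with it. LOC281376 was higher with PGF2A in each pair while its levels differed between numbers, and the groups overlapped. Its change was 0.98 ± 0.096 (adjusted p = 0.000215). SERPINB2, a separate entry and the usual symbol of that inhibitor, had a log2 change of 0.13, adjusted p = 0.457, and how reads were divided between these entries is not known.

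Among 28 tested collagens and matrix proteins 4 rose and 2 fell, with a median of -0.030. Neuronal pentraxin 2 (NPTX2), a secreted pentraxin, rose by 0.84 ± 0.097 (adjusted p = 0.000451), osteopontin (SPP1) by 0.48 ± 0.079 (adjusted p = 0.00585), thrombospondin 1 (THBS1) by 0.45 ± 0.091 (adjusted p = 0.0183) and CD44, a hyaluronan receptor, by 0.30 ± 0.055 (adjusted p = 0.00982). For NPTX2 the normalized counts were 206, 548, 459 and 341 in control, 566, 1101, 771 and 669.9 with PGF2A, 827, 1680.4, 1427 and 1550.1 with IFNT and 1446, 2643, 2489.7 and 1894 with IFNT+PGF2A, in the order of the numbers. NPTX2 was higher with PGF2A in all 8 pairs, the groups being separate without IFNT and overlapping with it. TNN, the tenascin W gene, fell by 0.35 on the log2 scale (adjusted p = 0.00244), and P4HA3, a subunit of collagen prolyl hydroxylase, by 0.39 (adjusted p = 0.0352), the latter call being kept in 4 of the 16 fits that each left out 1 library. The fibrillar collagens COL1A1 (log2 change -0.18, adjusted p = 0.195) and COL3A1 (-0.19, adjusted p = 0.0868) were lower without passing the test. COL1A2, also a fibrillar collagen, did not share this, with a log2 change of 0.00035, adjusted p = 0.998. Without number 4, 4 rose and 2 fell, with a median of -0.017, and P4HA3 was not called (-0.33, adjusted p = 0.0524).

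Genes of progesterone synthesis were lower by small amounts, and 1 of them passed the test. CYP11A1 had normalized counts of 27880, 43704, 32436 and 29338 in control cultures 1 to 4 and of 23901, 37372, 30819 and 21311 with PGF2A alone. CYP11A1 counts were 12892, 21016, 14267 and 17506 with IFNT and 11008, 16861, 13615 and 10717 with IFNT+PGF2A. CYP11A1, which cleaves the cholesterol side chain, was lower with PGF2A in all 8 pairs and the groups overlapped. It fell by 0.29 on the log2 scale (adjusted p = 0.0389), a call kept in 3 of the 16 fits that each left out 1 library (adjusted p up to 0.271). HSD3B1, which makes progesterone from pregnenolone, had a log2 change of -0.30, adjusted p = 0.0527, and was lower in 8 of 8 pairs (called in 4 of the 16 fits that each left out 1 library). STAR, which carries cholesterol into mitochondria, had a log2 change of -0.25, adjusted p = 0.136: without IFNT it was lower in all 4 pairs, with a change of -0.44, and with IFNT lower in 2 of 4, with a change of -0.061. The difference between these changes had an unadjusted p of 0.0103 and an adjusted p of 0.9996. STAR was called without number 4 (-0.32, adjusted p = 0.0171) and without the IFNT library of number 4 alone (adjusted p = 0.00998). NR5A1, the transcription factor that controls steroidogenic genes, had a log2 change of -0.14, adjusted p = 0.269.

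CYP17A1, the enzyme that makes androgens, was the gene that rose among the 24 tested steroid genes (1 rise, 1 fall, median -0.093). CYP17A1 stood at normalized counts of 28.7, 143, 205 and 46.8 in the 4 control cultures and at 117, 650.1, 342 and 97.4 in the PGF2A cultures. Beside IFNT, CYP17A1 stood at 28.5, 93.8, 149 and 52.3 without PGF2A and at 145, 384, 261 and 93.3 with it. CYP17A1 was higher with PGF2A in all 8 pairs, with levels that differed several-fold between numbers and overlapping groups. The change was 1.5 ± 0.20 (adjusted p = 0.00151), called in all 20 leave-one-out fits. The sum of the 6 steroidogenic marker counts ran from 47023 to 78333 in control and from 35010 to 63679 with PGF2A, and from 30293 to 41355 with IFNT and from 21920 to 36355 with IFNT+PGF2A. Without number 4, 2 genes of the steroid list rose and 3 fell, with a median of -0.060.

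Part of the genes of cholesterol synthesis fell. Of 34 tested genes of cholesterol synthesis, uptake and efflux 7 fell and 0 rose, with a median of -0.090. All 7 belong to synthesis: squalene synthase FDFT1 (-0.25 ± 0.034, adjusted p = 0.00168), mevalonate kinase MVK (-0.28 ± 0.055, adjusted p = 0.0133), the reductase DHCR7, the last step to cholesterol (-0.21 ± 0.044, adjusted p = 0.0199), the isomerase IDI1 (-0.17 ± 0.037, adjusted p = 0.0214), farnesyl diphosphate synthase FDPS (-0.20 ± 0.048, adjusted p = 0.048), the sterol enzymes NSDHL (-0.14 ± 0.033, adjusted p = 0.0417) and TM7SF2 (-0.25 ± 0.060, adjusted p = 0.0421). For FDFT1 the normalized counts were 5541, 6848, 4925 and 3361 in control, 4737, 5702, 4467 and 2773 with PGF2A, 8665, 10970, 8128 and 5800.2 with IFNT and 7386, 9099, 6966 and 4607 with IFNT+PGF2A, in the order of the numbers. FDFT1 was lower with PGF2A in every pair and the groups overlapped. The changes were small, and FDPS, NSDHL and TM7SF2 kept their calls in 2, 2 and 3 of the 16 fits without 1 library, DHCR7 in 13 and IDI1 in 9. Without number 4, 12 of the 34 fell and 0 rose.

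**Figure D4:**
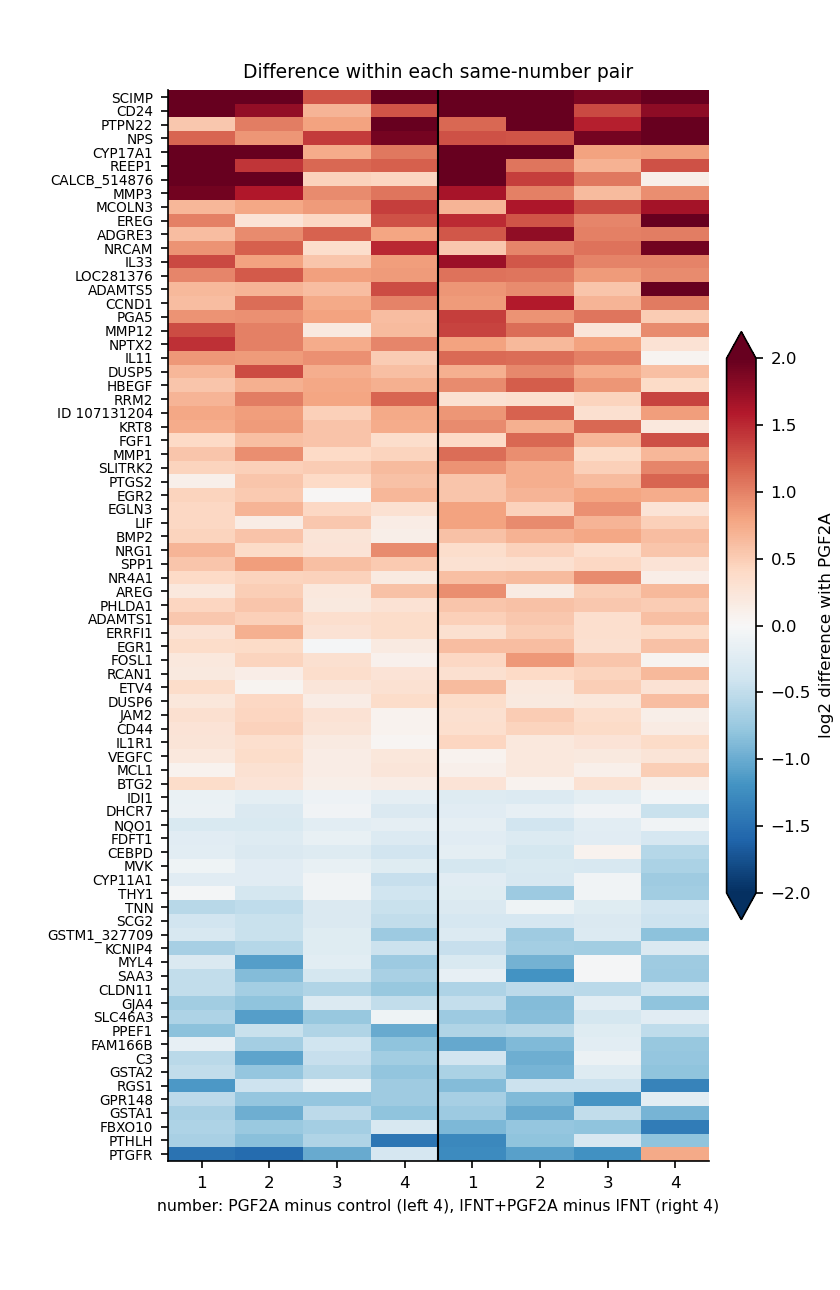
Log2 difference with PGF2A in each same-number pair (columns: numbers 1 to 4 without IFNT on the left, with IFNT on the right) for the called genes chosen by the naming rule, in the order of their change over both states; colours stop at -2 and 2. For the largest rises and falls the rule itself asks for 1 direction in all 8 columns, so their single colour was fixed by the choice, and the PTGFR row turns red in the last column, number 4 with IFNT.

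Several glutathione transferases fell, and no antioxidant gene was called higher. Of 28 tested antioxidant and glutathione genes 6 fell and 0 rose, with a median of -0.090. GSTA1, the transferase of the alpha class that is abundant in steroidogenic cells, fell by 0.77 on the log2 scale (SE 0.12, adjusted p = 0.00518). GSTA2 had normalized counts of 356, 531, 408 and 693 in control cultures 1 to 4 and of 253, 311, 279 and 401 with PGF2A alone. GSTA2 counts were 324, 488, 329.8 and 688 with IFNT and 209, 255, 275 and 394 with IFNT+PGF2A. GSTA2 was lower with PGF2A in all 8 pairs with overlapping groups, number 4 being the highest of each group, and fell by 0.65 (SE 0.069, adjusted p = 0.000247), called in all 20 leave-one-out fits. The other falls were those of 1 of the entries named GSTM1 (-0.48, adjusted p = 0.00686), GSTM3 (-0.31, adjusted p = 0.0364), GSTA4 (-0.21, adjusted p = 0.015) and NQO1, a quinone reductase (-0.23, adjusted p = 0.0112). Reads of near-identical transferases may have been divided between copies, so single members are uncertain. GSTM3 was called in 6 of the 16 fits that each left out 1 library. Without number 4, 9 of 28 fell and 0 rose, with a median of -0.061.

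Complement component C3 fell. C3 stood at normalized counts of 661, 883, 1877 and 713 in the 4 control cultures and at 456, 424, 1361 and 439 in the PGF2A cultures. Beside IFNT, C3 stood at 1043, 2051, 2549 and 1311 without PGF2A and at 803, 1045, 2358 and 767 with it. C3 was lower with PGF2A in all 8 pairs, number 3 was the highest of every group, and the groups overlapped. The change was -0.62 ± 0.11 (adjusted p = 0.00655), called in all 20 leave-one-out fits. The proteases of the first complement component, chosen after their values were seen, also fell, C1R by 0.34 (adjusted p = 0.0213) and C1S by 0.29 (adjusted p = 0.00471) on the log2 scale. SAA3, an acute phase protein, had a log2 change of -0.56, adjusted p = 0.0484, and kept this call in 5 of the 16 fits that each left out 1 library; it was not called without number 4 (-0.51, adjusted p = 0.07).

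Several cytokines and growth factors rose. Of 31 tested cytokine, chemokine and adhesion genes 4 rose and 0 fell, while the median was -0.056. IL33, an alarmin of the interleukin 1 family, rose by 1.06 ± 0.17 (adjusted p = 0.00461). For IL33 the normalized counts were 73.8, 277, 108 and 51.8 in control, 185, 485, 159.9 and 93.4 with PGF2A, 79.7, 143, 115 and 71.8 with IFNT and 263, 338, 229 and 143 with IFNT+PGF2A, in the order of the numbers. IL33 was higher with PGF2A in each pair, the groups overlapping without IFNT and being separate with it. IL11 rose by 0.81 ± 0.15 (adjusted p = 0.0112), LIF by 0.52 ± 0.11 (adjusted p = 0.0197) and the receptor IL1R1 by 0.26 ± 0.059 (adjusted p = 0.0325); IL11 and LIF both signal through gp130. IL11 differed little in number 4 with IFNT, from 219.5 to 229, and IL1R1 kept its call in 6 of the 16 fits that each left out 1 library. CXCL8, the neutrophil chemokine known to rise during luteal regression, had a log2 change of 0.032, adjusted p = 0.779, higher in 5 of 8 pairs, and its sign depended on number 4. Without number 4, 5 of the 31 rose.

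PTGS2, the inducible cyclooxygenase that starts prostaglandin synthesis, was the call among 18 tested genes of prostaglandin synthesis and signalling (1 rise, median 0.025). PTGS2 had normalized counts of 747, 1070.3, 2158 and 713 in control cultures 1 to 4 and of 802, 1579, 2844 and 1074 with PGF2A alone. PTGS2 counts were 526, 555, 1283 and 379.6 with IFNT and 776, 921, 1998 and 849.6 with IFNT+PGF2A. PTGS2 was higher with PGF2A in all 8 pairs, by a small margin in number 1 without IFNT, and the groups overlapped. The change was 0.59 ± 0.098 (adjusted p = 0.00585), called in all 16 fits without 1 library. It was called in 2 of the 4 fits without a number, and not without number 2 or number 3 (adjusted p up to 0.0886). Without number 4, 2 of the 18 rose, with a median of 0.0020. Among 23 tested angiogenic genes FGF1 (0.68 ± 0.14, adjusted p = 0.0212) and VEGFC (0.21 ± 0.045, adjusted p = 0.0215), a lymphatic growth factor, rose and 0 fell, with a median of 0.017; they kept their calls in 9 and 11 of the 16 fits without 1 library. VEGFA had a log2 change of 0.20, adjusted p = 0.351. Without number 4, 4 of the 23 rose, VEGFA among them (0.29, adjusted p = 0.0454), and the list's median was -0.035. BMP2, a ligand of the transforming growth factor beta family, rose by 0.51 ± 0.087 (adjusted p = 0.00676). It was the call among 25 tested genes of that family (4%, against 2.32% of all genes), with a median of 0.11. Without number 4, 4 of these genes rose and the median was -0.020. FGF7, a fibroblast growth factor of mesenchymal cells chosen after its values were seen, rose by 0.64 ± 0.093 (adjusted p = 0.00244), without the number term too.

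The largest rises lay outside the lists. Among genes of the naming rule the largest rise was that of SCIMP, a membrane adaptor known from antigen-presenting cells. SCIMP stood at normalized counts of 1.92, 10.3, 10.5 and 1.02 in the 4 control cultures and at 26.8, 53.8, 25.8 and 19.7 in the PGF2A cultures. Beside IFNT, SCIMP stood at 3.93, 9.77, 9.25 and 3.08 without PGF2A and at 47.9, 57.7, 35.3 and 16.2 with it. The SCIMP samples with PGF2A all exceeded those without it in each IFNT state, though the gene was low throughout. Its change was 2.61 ± 0.26 (adjusted p = 0.000215), called in all 20 leave-one-out fits and without the number term. CD24 had normalized counts of 45.0, 137, 183 and 74.2 in control cultures 1 to 4 and of 248, 464, 293 and 179 with PGF2A alone. CD24 counts were 32.5, 64.5, 88.3 and 24.6 with IFNT and 209.98, 292, 221 and 86.2 with IFNT+PGF2A. CD24, a surface glycoprotein, was higher in every pair, with number 2 the highest of both PGF2A groups and a narrow overlap between the groups in each IFNT state. The change was 1.76 ± 0.20 (adjusted p = 0.000333). TCHHL1, a gene of the trichohyalin family that lies outside the naming rule for its low mean of 19.8 and was chosen after its values were seen, had the largest change of all. For TCHHL1 the normalized counts were 0.958, 4.67, 15.2 and 3.05 in control, 40.2, 45.8, 44.7 and 25.6 with PGF2A, 1.97, 0.977, 10.3 and 3.08 with IFNT and 32.2, 41.5, 26.0 and 21.3 with IFNT+PGF2A, in the order of the numbers. TCHHL1 samples with PGF2A were all above those without it in each state, and the change was 3.10 ± 0.37 (adjusted p = 0.000561). Its relative TCHH, chosen the same way, rose by 1.5 ± 0.26 (adjusted p = 0.00736).

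The other rises of the naming rule, which asks for 1 direction in all 8 pairs, were those of the lymphocyte phosphatase PTPN22 (1.59), the neuropeptide precursor NPS (1.54), the endoplasmic reticulum protein REEP1 (1.44), 1 of the entries named CALCB (1.30), a calcitonin-related gene, the lysosomal channel MCOLN3 (1.12), the adhesion receptor ADGRE3 (1.07), the cell adhesion gene NRCAM (1.06), the pepsinogen PGA5 (0.89), the synaptic adhesion gene SLITRK2 (0.64) and a gene without a symbol (0.76), with adjusted p-values from 0.000215 to 0.0141. NPS stood at 51.7, 134, 128 and 21.3 in control and 117, 249, 337 and 81.6 with PGF2A, and at 20.6, 23.4, 28.8 and 6.16 with IFNT and 50.8, 56.7, 110.1 and 36.5 with IFNT+PGF2A. NPS was lower in the IFNT cultures than in control for every number and higher with PGF2A in every pair.

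The other falls of the rule were those of the F-box gene FBXO10 (-0.78), the orphan receptor GPR148 (-0.71), RGS1, which shortens G protein signals (-0.69), FAM166B (-0.62), the calcium-binding phosphatase PPEF1 (-0.60), the lysosomal transporter SLC46A3 (-0.59), the connexin GJA4 (-0.58), the claudin CLDN11 (-0.58), the myosin light chain MYL4 (-0.54) and the potassium channel partner KCNIP4 (-0.50), with adjusted p-values from 0.000215 to 0.0345. FBXO10 had normalized counts of 279.7, 429, 257 and 260.2 in control cultures 1 to 4 and of 183, 257, 161 and 209 with PGF2A alone. FBXO10 counts were 265, 362, 202 and 308 with IFNT and 142, 211, 115 and 117 with IFNT+PGF2A. The FBXO10 groups were separate by a margin under 1 count without IFNT and overlapped with it, number 2 being the highest of every group. CLDN11 stood at normalized counts of 1057, 1062, 1756 and 1407 in the 4 control cultures and at 748, 665, 1151 and 836 in the PGF2A cultures. Beside IFNT, CLDN11 stood at 1405, 1417, 2496 and 1467 without PGF2A and at 912, 983, 1725 and 1116 with it. The CLDN11 groups overlapped in both states, with number 3 the highest of every group. FBXO10 and CLDN11 were called in all 20 leave-one-out fits, whereas RGS1 and MYL4 kept their calls in 6 of the 16 fits without 1 library and GJA4 in 10, and RGS1 and MYL4 were not called without number 4. CLDN11 and GJA4 were the falls among 24 tested junction genes, and JAM2, a junctional adhesion molecule, was the rise (0.30, adjusted p = 0.0436; kept in 2 of the 16 fits that each left out 1 library). The median of the junction list was 0.043; without number 4, 2 rose and 2 fell, and the median was -0.015.

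**Figure D5:**
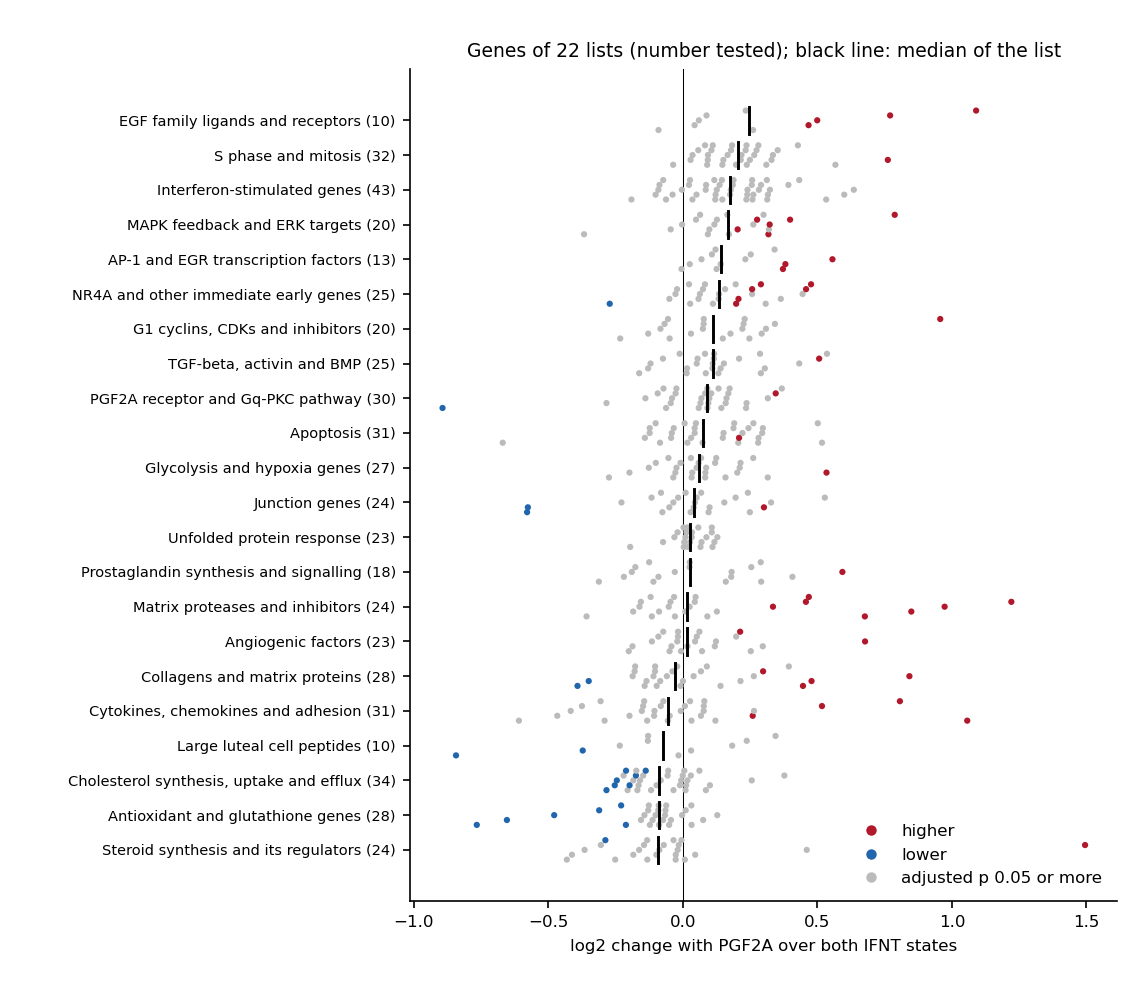
Log2 change with PGF2A over both IFNT states for the tested genes of 22 lists, with the number tested after each name; red points rose, blue points fell, grey points were not called, and black lines are list medians. Medians lie between -0.093 and 0.25, the matrix protease list has 7 red points at a median near 0, and the cholesterol and antioxidant lists have blue points alone among their called genes.

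The remaining lists held few or no called genes. Among 43 tested interferon-stimulated genes 0 were called in limma although 35 were above 0 and the median was 0.18 (0.35 without IFNT and -0.027 with it); 3 were higher and 0 lower at an unadjusted p under 0.05, and edgeR and DESeq2 called 0. HERC5, an interferon-induced ligase, had a log2 change of 0.26, adjusted p = 0.278. The list's median without IFNT was -0.13, 0.45, 0.98 and -0.12 in numbers 1 to 4, so the numbers differed in direction. Of 27 tested glycolysis and hypoxia genes 1 rose, the oxygen sensor EGLN3 (0.53, adjusted p = 0.0095), and of 31 tested apoptosis genes 1 rose, the survival gene MCL1 (0.21, adjusted p = 0.0394, kept in 4 of the 16 fits that each left out 1 library). These single calls are shares of 3.70% and 3.23%, near the 2.32% of all genes, and are not read as results about the lists. Of 23 tested genes of the unfolded protein response limma, edgeR and DESeq2 called 0, with 1 higher and 1 lower at an unadjusted p under 0.05; their median was 0.027. Without number 4 these 4 lists had 0, 3, 6 and 2 rises, with 0 falls, shares of 0%, 11.1%, 19.4% and 8.70% against the background of 5.91%, and medians of 0.19, 0.12, 0.064 and 0.041.

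Markers of other cell types gave few calls. THY1 fell among 8 tested fibroblast markers (-0.32, adjusted p = 0.0437, kept in 5 of the 16 fits that each left out 1 library, and not called without number 4). Without number 4, 1 other fibroblast marker fell, and with all numbers DESeq2 called 2 of the 8 lower. None of the 9 endothelial, 9 pericyte and smooth muscle, 7 macrophage, 3 small luteal, 2 T and NK cell, 1 B cell, 2 neutrophil and 2 red cell markers tested was called by limma, edgeR or DESeq2; without number 4, 1 small luteal marker fell, and 0 of the other lists were called by limma. At an unadjusted p under 0.05 in limma, 4 pericyte and smooth muscle markers and 1 each of the macrophage and neutrophil markers were lower and 0 of these lists were higher. The 1 red cell marker lower at this threshold was HBA1, which passed the filter only through the IFNT group, where it was high. It is taken up at the end and not read as an effect of PGF2A. All 9 endothelial and all 7 macrophage markers were below 0, with medians of -0.081 and -0.25. Their summed counts overlapped between groups, from 9295 to 23068 in control and from 9076 to 20959 with PGF2A for endothelial markers, and from 503 to 679 and from 466 to 689 for macrophage markers. KRT8, a keratin of simple epithelia and one of 5 tested epithelial and granulosa markers, rose (0.74, adjusted p = 0.00101), and KRT18, its partner keratin, had a log2 change of 0.65, adjusted p = 0.0671; without number 4, KRT18 was called too (0.84, adjusted p = 0.00129). The summed counts of that marker list ran from 928 to 5213 in control and from 1346 to 9043 with PGF2A, and from 793 to 2560 with IFNT and from 846 to 3744 with IFNT+PGF2A. Whether such cells had a part in the keratin values was not tested.

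In the authors' deposited table of the PGF2A main effect 26 genes had an adjusted p under 0.05, and the authors' deposited interaction table held 0 such genes, the lowest adjusted p there being 1. Of those 26 genes 25 passed the filter used here, and all 25 were called here too, 22 higher and 3 lower.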

How the data were processed

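RNA of 16 luteal cell cultures, 4 in each of 4 groups, was sequenced as 100 bp read pairs, per the labels' protocols. Tools listed in the submitters' processing notes are RSEM 1.2.8, HISAT2 2.0.4, DESeq2 and Bowtie2 2.2.5. The genome build, annotation and strand setting: not given in the sources used here. Per the file headers, the authors' deposited table of the PGF2A main effect holds a signal per gene and sample (a normalized count), p-values and a statistic (a score), and other deposited tables, not used here beyond the interaction table, hold log2 fold changes. The deposited values were reads over a size factor for each sample (0.963 to 1.07), since 100% were whole multiples of 1 read within 0.001 reads. Of 18675 gene IDs, 17750 matched RefSeq genes of assembly ARS-UCD2.0, used for names and gene order, and 25 names turned into dates by a spreadsheet were restored. RSEM divides reads among similar genes, so near-identical copies are uncertain.

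Because the values are normalized, log2(normalized count + 0.5) was fitted with limma 3.58.1 (R 4.3.3) with an intensity trend, PGF2A, IFNT state and sample number as terms, and Benjamini-Hochberg adjustment over 14106 genes at 0.05. Effects within each IFNT state and their difference came from a fit with 1 mean per group and the number. The number is a term because samples with the same number deviated from their group means together: 24 such pairs had correlations of 0.329 to 0.713, while the highest of 72 pairs with different numbers was 0.0486. This pairing comes from the data, not from the labels. The code was tested on simulated data. As alternatives, the recovered reads were fitted with edgeR 4.0.16 (356 genes called) and DESeq2 1.42.0 (547), and the block, the moderation, the pseudocount, the filter and the scaling were changed and samples left out.

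Named genes were the 15 largest called rises and the 15 largest called falls with a symbol, a mean normalized count of at least 20 and 1 direction in 8 of 8 pairs, the 10 smallest adjusted p-values, 14 luteal genes given whether called or not, and up to 4 genes of smallest adjusted p per list; others are said to be chosen after their values were seen. A gene of 1 list is not reported here, and the counts and medians of that list leave it out. The comparison, the gene lists and the rules were chosen with earlier results of these data known. Reads carry no molecular identifiers, and precision is given by the spread between samples.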

Additional observations from a re-analysis of the deposited data

Results flagged for a closer look

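In 10 of 192 groups of 4 samples, over 48 named genes, 1 sample lay farther from the other 3 than Dixon's 95% limit allows (5.21%; chance gives about 1 in 20), and 4 of the 10 were samples of number 4. In the IFNT library of number 4, PTPN22 stood at 7.18 normalized counts, against 20.5 to 22.6 in the others, and MYL4 at 517 against 62.5 to 100.3. MYL4 was also high in control number 4, at 559 against 107 to 141. REEP1 was low in PGF2A number 4, at 28.5 against 80.5 to 82.4. Among number 2, CCND1 stood at 1238 with IFNT+PGF2A against 929.6 to 959, and in control FBXO10 stood at 429 against 257 to 279.7 and GPR148 at 95.3 against 35.6 to 40.9. Among number 3, C3 stood at 1361 with PGF2A against 424 to 456, CLDN11 at 2496 with IFNT against 1405 to 1467, and PTGS2 at 1998 with IFNT+PGF2A against 776 to 921. MYL4, C3, CLDN11 and PTGS2 were highest in the same number in each of the 4 groups.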

How the results depend on the processing

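The sample number decides most calls. With no replicate block, 6 genes were called over both IFNT states, 0 without IFNT and 1 with IFNT, against 327, 23 and 99; with the number as a random effect the counts were 168, 4 and 23, and with DESeq2 547, 103 and 206. The cause of the larger DESeq2 counts was not tested. Of the 327 genes edgeR called 316 and DESeq2 322. Leaving out 1 library or 1 number gave 46 to 824 calls over both states, 0 to 122 without IFNT and 0 to 333 with IFNT. Single libraries that moved the main count by over 1.5 times were control 1 (217), control 4 (212), IFNT 2 (193), IFNT 4 (575), PGF2A 2 (212) and IFNT+PGF2A 1 (190). The interaction gave 0 calls under each alternative run. Pseudocounts of 0.1 and 5, filters of 50 and of any value above 0, TMM scaling, robust moderation and averaging over states kept the main count within 1.5 times, and no scaling moved the median of all genes by 0.1. Of 107 genes followed one by one, 1 changed sign under any alternative: CXCL8, not called, which ran from -0.0021 without number 4 to 0.0594 without number 3. The 107 genes held 97 called ones, of which 92 lost their call without the block and 5 kept it. Depth limits genes near 10 counts, where a change of a few reads moves the log2 value.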

Other observations

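Genes that rose with PGF2A often lay beside each other. In the gene order of RefSeq assembly ARS-UCD2.0, 203 of the 206 rises have a place, and 33 of them (16.3%) lay next to another rise among the genes tested, while 2.94% of all 13692 tested genes with a place lay next to a rise. Of 119 falls with a place, 10 (8.40%) lay next to another fall, against 1.70% of all genes. The neighbours include the metalloproteinases MMP12, MMP3 and MMP1 (0.85, 1.22 and 0.68), the ligands EREG and AREG (1.09 and 0.47), the aggrecanases ADAMTS5 and ADAMTS1 (0.97 and 0.46), TCHH and TCHHL1 (1.5 and 3.10), and SERPINB8 and LOC281376 (0.29 and 0.98), each with its log2 change. Among the falls were GSTA2 and GSTA1 (-0.65 and -0.77), C1R and C1S (-0.34 and -0.29), and the basement membrane collagens COL4A6 and COL4A5 (-0.34 and -0.32). No test was made of these shares, and similar neighbours such as GSTA1 and GSTA2 may share reads.

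HBA1, an alpha globin entry, stood at 24.6, 23.4, 25.7 and 25.6 normalized counts with IFNT and at 0, 0, 0 and 0 with IFNT+PGF2A, so no sample overlapped. In control it stood at 23.9, 0, 0 and 0, and with PGF2A at 0, 0, 24.8 and 0. The PGF2A effect had an adjusted p of 0.277 and the difference between IFNT states an unadjusted p of 0.00831 (adjusted p = 0.9996). The entry HBA, with which HBA1 may share reads, ran from 64.6 to 1640.3 with IFNT and from 44.6 to 1241 with IFNT+PGF2A. Each HBA1 value was either 0 or between 23.4 and 25.7, with none in between. HBA1 met the filter of 10 in at least 4 samples only because of the IFNT group, the group in which it was high. The separation of the groups is therefore not read as an effect of PGF2A. Whether the division of reads between globin entries had a part in it was not tested.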
